A study of Homo sapiens with 8 samples.

Results

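The comparison was between cells that made 3xFLAG-DUS2L and were given 5-chlorouridine (5-ClUrd) and the same cells without it. Libraries were chosen by titles that name DUS2L, which gave 4 of the 8 iCLIP libraries of the series: 2 untreated and 2 with 5-ClUrd. The cells were Flp-In T-Rex 293, an established line from human embryonic kidney in which a tetracycline-switched transgene for the tagged enzyme had been integrated. Every library came from cells that carried the transgene and had 1 µg/mL tetracycline for 12 h and again, in fresh medium, for a further 12 h. The treated group had 100 µM 5-ClUrd during those last 12 h and the untreated group had none. The tagged enzyme was thus made from a transgene in all groups, and no library without it was analysed here. The series calls the treated libraries biological replicates. For the untreated ones nothing says that they came from separate cultures, so p-values measure the spread between these libraries, which may be technical. The sites lay on cytosolic tRNA and rRNA alone, so shares are of these RNAs together, and neither the cell line nor the amount of DUS2L could be checked in the files.

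Dihydrouridine synthases reduce uridine in tRNA to dihydrouridine, a base found mainly in the D loop, which gave that loop its name. DUS2L, also called DUS2, is the human member known for the D-loop uridine that follows the conserved pair of guanines. 5-ClUrd is taken up by cells and built into RNA in place of uridine, and the chlorinated base can stay bonded to the enzyme that acts on it. In iCLIP the protein is purified with the RNA bonded to it, and reverse transcription stops at or beside the bond, so that a count marks a cDNA end at that position. Position 1 is the first base of each reference sequence at its 5′ end, a numbering that can differ from the standard tRNA numbering where a D loop is longer or shorter.

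The sequences of tRNA genes that carried different patterns of counts are shown first, because later values refer to their positions. RefSeq sequence (build GRCh38.p14) could be joined to 14 tRNA references, which held between 12.8% and 17.7% of a library's tRNA counts. The genes shown were chosen after their values were seen. Capitals mark positions that held at least 10% of the reference's counts with 5-ClUrd (mean of the libraries), and the absence of capitals means that counts were spread over many positions. Each reference pools gene copies, and the coordinates are those of the gene copy whose sequence is printed.
tRNA-His-GTG-1: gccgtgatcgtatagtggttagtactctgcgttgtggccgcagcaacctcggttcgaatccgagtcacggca
tRNA-Gly-CCC-2: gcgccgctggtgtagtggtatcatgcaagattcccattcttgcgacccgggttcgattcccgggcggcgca
tRNA-Phe-GAA-1: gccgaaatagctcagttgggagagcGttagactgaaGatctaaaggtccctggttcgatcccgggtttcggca
tRNA-Arg-ACG-2: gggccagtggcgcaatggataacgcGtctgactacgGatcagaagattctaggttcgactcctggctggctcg
tRNA-Leu-AAG-2: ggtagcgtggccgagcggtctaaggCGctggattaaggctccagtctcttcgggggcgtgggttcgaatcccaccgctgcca
tRNA-Pro-TGG-3: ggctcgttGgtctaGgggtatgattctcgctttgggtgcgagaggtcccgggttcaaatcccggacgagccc
tRNA-Ala-AGC-2: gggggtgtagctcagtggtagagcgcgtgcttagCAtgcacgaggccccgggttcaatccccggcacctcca
The histidine gene is TRH-GTG1-3 at chr1:148281365-148281436 on the plus strand, and the glycine gene is TRG-CCC2-2 at chr16:636736-636806 on the minus strand. The phenylalanine gene is TRF-GAA1-5 at chr13:94549650-94549722 (minus), and the arginine gene is TRR-ACG2-1 at chr3:45688999-45689071 (minus). The leucine gene is TRL-AAG2-2 at chr6:28943622-28943703 (minus), the proline gene TRP-TGG3-2 at chr14:20684016-20684087 (plus) and the alanine gene TRA-AGC2-2 at chr6:28863685-28863756 (minus).

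On tRNA-His-GTG-1 and tRNA-Gly-CCC-2, counts were spread over nearly every position from 2 to 20, that is from the 5′ end to the bases just past the GG of the D loop, and were low at most positions beyond. At positions 2 to 20 of tRNA-Gly-CCC-2 the median count per position was 120 and 123 in the untreated libraries and 805 and 1015 with 5-ClUrd. Between positions 22 and 50 the medians were 2 and 2 untreated, and 17 and 19 with 5-ClUrd. The untreated profile of this tRNA had sharp peaks at position 2 (1136 and 1125 counts) and position 9 (1064 and 1136), which stood at 1345 and 1368 and at 1212 and 1436 with 5-ClUrd. The positions between them rose closer to that height (lowest counts 392 and 752 over positions 2 to 20, from 13 and 20), so that the treated profile was flatter than the untreated one. Position 19, the T after the GG of the D loop, went from 102 and 123 to 870 and 1035 counts, which was 2.21% and 2.44% of the reference untreated and 5.09% and 4.86% with 5-ClUrd.

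tRNA-His-GTG-1 had counts over the same stretch without the analogue. The median count over positions 2 to 20 was 325 and 574 untreated and 784 and 1016 with 5-ClUrd. Its highest positions did not rise in raw counts: position 2 had 1260 and 1302 counts untreated and 1233 and 1244 with 5-ClUrd, and position 20 had 1082 and 1135 against 963 and 1042. Position 19, the first T after the GG in this tRNA, held 5.32% and 4.75% of the reference's counts untreated and 4.04% and 4.08% with 5-ClUrd, so the groups did not overlap and the treated shares were lower. Outside that stretch it had peaks at position 58 (799 and 1069 counts untreated, 1042 and 1086 with 5-ClUrd) and position 38 (550 and 885 against 904 and 621). 6 of its 63 positions with counts exceeded 900 in both treated libraries.

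On the other sequences shown, few positions held most counts. tRNA-Phe-GAA-1 had 219 and 267 of its 292 and 328 untreated counts at position 37, the base after the anticodon, and 564 and 555 of 1103 and 1047 with 5-ClUrd. Position 26, the base between the D stem and the anticodon stem, went from 28 and 22 counts to 190 and 198. tRNA-Arg-ACG-2 had the same pair of positions, with 36.2% and 30.9% of untreated and 35.8% and 37.3% of treated counts at position 26, and 40.2% and 46.4% against 43.6% and 50.0% at position 37, so that the groups overlapped at both. On tRNA-Leu-AAG-2 position 27 held 46.5% and 44.2% of untreated and 31.9% and 43.5% of treated counts. On tRNA-Pro-TGG-3 position 15 held the largest untreated share (36.3% and 30.6%) and position 9 the largest treated one (52.1% and 41.5%, from 22.9% and 26.02%). tRNA-Ala-AGC-2, which is deposited as 1 reference with tRNA-Ala-AGC-7, had 43 and 25 counts untreated and 868 and 696 with 5-ClUrd, of which position 36, the base after the anticodon in this shorter sequence, held 69.8% and 56.0% and then 50.9% and 50.6%.

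**Figure D1:**
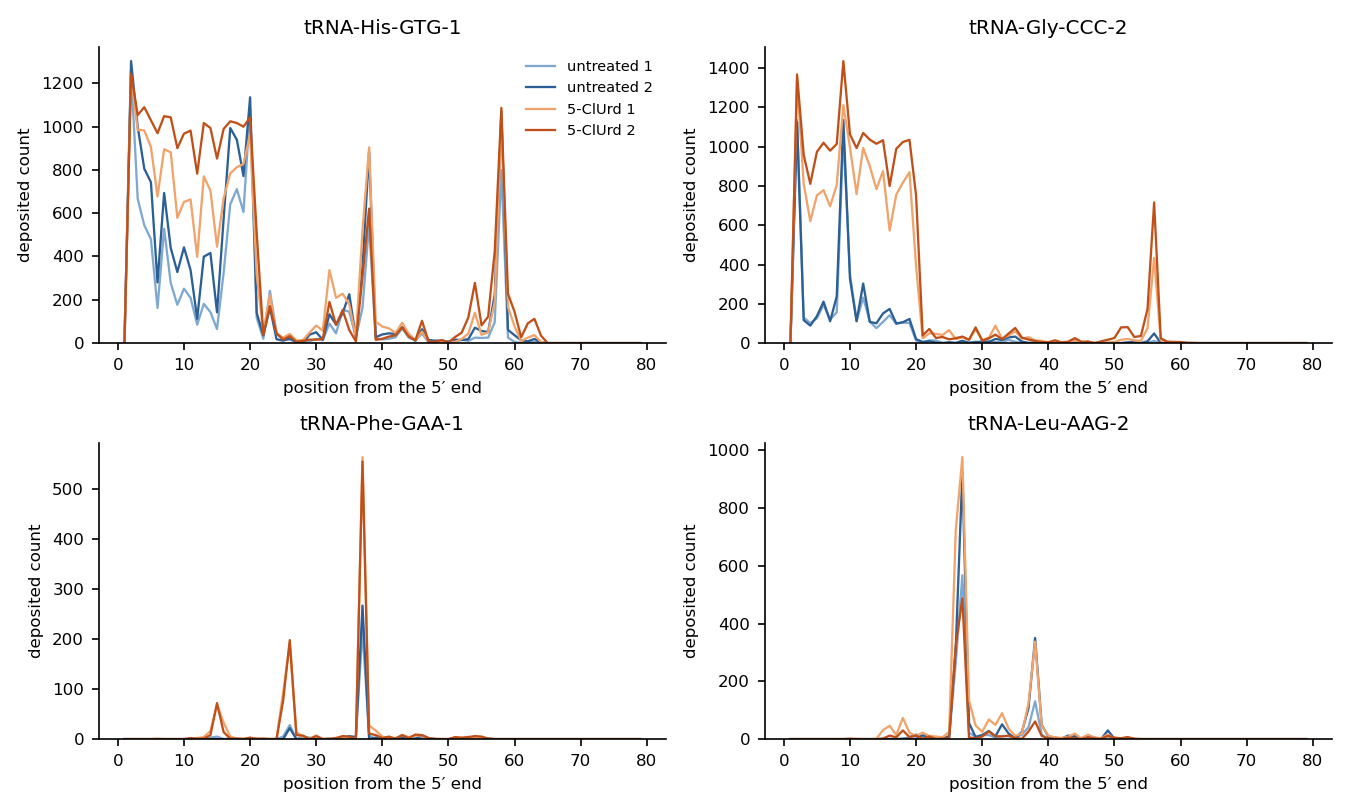
Deposited count (vertical axis) at each position from the 5′ end (horizontal axis) of 4 tRNA references in the untreated (blue, 2 libraries) and 5-ClUrd (orange, 2 libraries) groups, with no scaling to library size. Over positions 2 to 20 the treated lines of tRNA-His-GTG-1 lie between 398 and 1244 counts and those of tRNA-Gly-CCC-2 between 392 and 1436, above the untreated lines at most positions, whereas tRNA-Phe-GAA-1 and tRNA-Leu-AAG-2 have peaks at positions 26 or 27 and 37 or 38.

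Sense-strand counts numbered 130011 and 172078 in the untreated libraries and 370878 and 363024 with 5-ClUrd, on 13653 distinct sites. Over families, replicates of a group differed beyond sampling noise (chi-square per degree of freedom 56.0 untreated and 287 with 5-ClUrd). Between 23.9% and 34.9% of untreated and 49.2% and 49.6% of treated counts lay at sites with more than 500 counts. The highest site count was nearly the same in the 4 libraries (1314, 1348, 1428 and 1436), although the treated libraries were deeper by a ratio of 2.43. Sites with a mean of 10 to 100 untreated counts had a median raw ratio of 2.25 between treated and untreated libraries (784 sites), and sites of 100 to 500 one of 2.30 (229 sites). Sites of 500 or more had a ratio of 1.14 (57 sites). Tall sites thus rose less than low ones in raw counts, and their share fell as the library total grew. The raw counts are given beside the changes below for that reason, and what limited the tall sites was not tested.

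**Figure D2:**
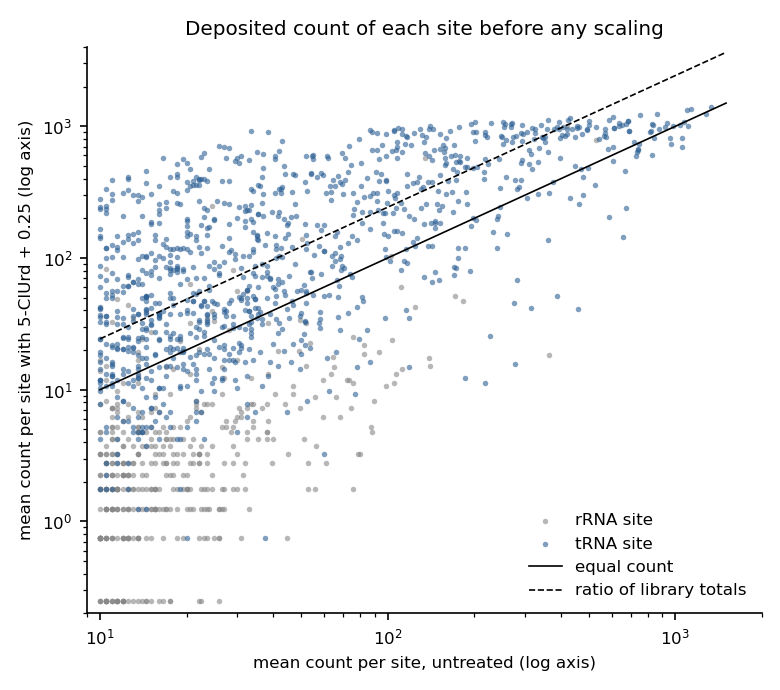
Mean deposited count of each site with at least 10 untreated counts, untreated (horizontal, log axis) against 5-ClUrd (vertical, log axis, 0.25 added), for tRNA (blue) and rRNA (grey) sites. The solid line is an equal count and the dashed line the ratio of library totals, 2.43; tRNA sites with 500 or more untreated counts lie near the solid line, and most rRNA sites lie below it.

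The comparison asks where on tRNA and rRNA the cDNA ends of DUS2L libraries moved when the analogue was given. tRNA took 80.6% and 86.4% of untreated counts and 97.4% and 95.6% of counts with 5-ClUrd. The treated libraries were both above the untreated ones, by 13.01 percentage points in the mean, with a two-sided p of 0.333 by exact permutation, the smallest value that 2 against 2 libraries allow. Each feature was also tested with edgeR's quasi-likelihood F test on counts scaled to the library's sense total, with Benjamini-Hochberg adjustment over the whole table, and rose or fell is used where the adjusted p was under 0.05.

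The 28S and 18S rRNAs lost raw counts and not merely share. 28S rRNA, the RNA of the large subunit, had 18776 and 17377 counts untreated and 6635 and 10920 in the deeper treated libraries. 18S rRNA, that of the small subunit, had 4516 and 4225 against 1753 and 2621. The raw counts of the spacers (1614 and 1567 against 956 and 1975) and of 5.8S rRNA (69 and 119 against 30 and 81) overlapped, and those of 5S rRNA were higher with 5-ClUrd (195 and 180 against 252 and 299). Of 1655 rRNA sites tested, 749 fell (45.3%) and 18 rose (1.09%). Against these values 584 of 1189 sites in 28S fell and 7 rose, and 128 of 325 in 18S fell and 2 rose. In the transcribed spacers, which are cut out of the precursor, 33 of 112 fell and 9 rose. Of the small rRNAs, 2 of 22 sites in 5S and 2 of 7 in 5.8S fell. All 749 sites that fell had fewer raw counts in the treated mean. The median of their mean counts was 9.5 untreated and 0.5 with 5-ClUrd. Many of them thus reached the minimum of 10 counts through the untreated libraries, and their lower raw counts are no separate result. With a minimum of 50 counts 212 of all tRNA and rRNA sites fell, against 854.

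Single rRNA sites did not move alike. In 28S rRNA, position 4487 had 373 and 353 counts untreated and 8 and 28 with 5-ClUrd, a log2 change of -5.63 ± 0.57 (SE, edgeR adjusted p = 3.17e-20). Position 2152 had 169 and 110 counts against 18 and 16 (log2 -4.37 ± 0.78, edgeR adjusted p = 1.12e-06). Position 1322 went from 164 and 201 to 43 and 50, and position 2145 from 150 and 192 to 42 and 61, with log2 changes of -3.25 and -3.01. At each of these positions the groups did not overlap. They were named, as were positions 2890 and 324 below, for the highest untreated shares among rRNA sites. That choice favours a fall, so the lack of overlap is no separate result. Without either untreated library these calls were lost with every other call on sites, as given below. The highest rRNA sites behaved otherwise. Position 2890 of 28S rRNA had 333 and 505 counts untreated and 927 and 1078 with 5-ClUrd, a share of 0.256% and 0.2935% against 0.2499% and 0.297%. Position 324 had 360 and 702 against 557 and 1014. Neither passed the test (log2 -0.0073 ± 0.33 and -0.67 ± 0.33, edgeR adjusted p = 0.988 and 0.0817), and their groups overlapped. The change at position 2890 was 0.65 with TMM factors, and that at position 324 was -1.19 without the second treated library (edgeR adjusted p = 0.00257). Position 2890 took 1.77% and 2.91% of 28S counts untreated and 13.97% and 9.87% with 5-ClUrd. Position 53 of 28S, named after its values were seen, had 0 counts in both untreated libraries and 76 and 343 with 5-ClUrd, at least 28.4-fold higher against a floor of 3 counts per untreated library. 18S rRNA:660, position 660 of 18S and also chosen after its values were seen, went from 4 and 5 counts to 57 and 230 (log2 3.70, edgeR adjusted p = 0.00258).

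Among tRNAs, the families of alanine, threonine, cysteine and selenocysteine had the largest rises, beside tRNA-Tyr-ATA and tRNA-Ile-GAT, which rest on few counts, and those of arginine, proline and leucine had 7 of the 9 falls. A family is the set of references with the same amino acid and anticodon. Of 54 families 29 rose (53.7%) and 13 fell (24.1%), and the counts below are read against these shares. With TMM factors 19 rose and 21 fell, and with DESeq2 size factors 19 and 21, because these scalings moved the median family by -0.63 and -0.75 on the log2 scale. The changes below are therefore relative to the sum of tRNA and rRNA counts, which contains the loss of rRNA. Scaled to tRNA counts alone, 29 of 49 families rose and 12 fell, among them all 29 rises and all 9 tRNA falls. The 13 falls kept their call with TMM factors and with DESeq2 size factors, and 19 of the 29 rises did. Without the first untreated library 19 rises and 9 falls kept theirs, and without the second 19 and 7.

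All 3 alanine and all 3 threonine families rose. tRNA-Ala-CGC had 20 and 32 counts untreated and 1451 and 1624 with 5-ClUrd (log2 4.61 ± 0.27, edgeR adjusted p = 2.31e-05). tRNA-Ala-TGC had 35 and 58 counts against 1495 and 1323, and tRNA-Ala-AGC 347 and 477 against 7124 and 6004. tRNA-Thr-TGT went from 80 and 70 counts to 3575 and 4486 (log2 4.44 ± 0.29, adjusted p = 2.82e-05). tRNA-Thr-CGT had 78 and 83 counts against 3125 and 2689, and tRNA-Thr-AGT 182 and 223 against 5057 and 4638. No site of these 6 families exceeded 103 counts untreated. With 5-ClUrd the highest site of tRNA-Ala-CGC had 353 and 316 counts and that of tRNA-Ala-TGC 208 and 200, while the other 4 families had sites above 500, the highest of them in tRNA-Thr-AGT (834 and 794).

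tRNA-SeC-TCA, which reads a recoded stop codon and inserts selenocysteine, had 26 and 47 counts untreated and 1224 and 1264 with 5-ClUrd (log2 3.83 ± 0.29, edgeR adjusted p = 4.18e-05). tRNA-Cys-GCA had 52 and 43 counts against 1284 and 1636. tRNA-Ile-GAT rested on 6 and 12 untreated counts, and its treated counts of 163 and 638 lay far from each other (log2 4.21 ± 0.85). tRNA-Tyr-ATA had 0 and 1 counts against 29 and 160. All 3 isoleucine, both lysine, both glutamine and both tyrosine families rose, as did those of asparagine, elongator methionine and tryptophan, 2 of 3 valine families, tRNA-Glu-TTC and tRNA-Arg-CCT. The tryptophan rise was small (629 and 1053 counts against 2516 and 4442, log2 0.79 ± 0.31, edgeR adjusted p = 0.0498). It missed the threshold without the second treated library (log2 0.31, edgeR adjusted p = 0.244), without either untreated one (0.183 and 0.0530) and with TMM factors (log2 0.16).

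Glycine tRNAs gained the most in absolute share. The 3 families together took 6.17% of untreated and 14.6% of treated counts (means over 2 libraries). tRNA-Gly-TCC had 2722 and 3047 counts untreated and 21003 and 26557 with 5-ClUrd (log2 1.75 ± 0.24, edgeR adjusted p = 0.000614). tRNA-Gly-GCC went from 935 and 1112 to 9227 and 7644 (log2 1.75 ± 0.21, adjusted p = 0.000416). tRNA-Gly-CCC went from 5039 and 5582 to 19367 and 23335 (log2 0.71 ± 0.22, adjusted p = 0.0243), a rise that missed the threshold with the replicate number as a block (adjusted p = 0.0676) or without either untreated library (0.126 and 0.298) and turned to -0.05 with DESeq2 size factors. In tRNA-Gly-CCC 83.1% and 88.5% of treated counts lay at sites above 500 counts, against 26.1% and 32.9% in tRNA-Gly-GCC.

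Falls among tRNAs came in different kinds when raw counts were read. tRNA-Arg-TCG lost raw counts: 4356 and 6166 untreated, 2765 and 3307 with 5-ClUrd (log2 -2.07 ± 0.22, edgeR adjusted p = 0.000286). tRNA-Pro-CGG had 1906 and 2475 counts against 1729 and 2125, which overlapped as counts but not as shares (log2 -1.47 ± 0.21, adjusted p = 0.000736). tRNA-Pro-AGG had 627 and 770 against 698 and 1058 (log2 -0.95, adjusted p = 0.0130). The 13 families that fell were 9 of tRNA and 4 of rRNA. In 7 of the 13, all of them tRNA, the mean raw count was higher with 5-ClUrd, as it was in all 29 that rose. The tRNA exceptions were tRNA-Arg-TCG and tRNA-Pro-CGG. Of the 13, 8 held a site above 500 counts without the analogue, the rRNA of the large subunit among them, against 6 of the 29 that rose.

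tRNA-His-GTG is of that kind: 11366 and 16242 counts untreated and 20500 and 24505 with 5-ClUrd, a fall in share from 8.74% and 9.44% to 5.53% and 6.75% (log2 -0.57 ± 0.20, edgeR adjusted p = 0.0382). All its counts lay on tRNA-His-GTG-1, and the same counts missed the threshold when references were tested singly (edgeR adjusted p = 0.0525). The call was lost when either untreated library was dropped (edgeR adjusted p = 0.176 and 0.298), with sites above 500 counts left out (0.158), or with the first treated library left out (0.277). Among leucine families tRNA-Leu-CAA (log2 -0.96), tRNA-Leu-CAG (-0.98) and tRNA-Leu-TAG (-0.68) fell, while tRNA-Leu-AAG (-0.40) and tRNA-Leu-TAA (0.49) did not pass. tRNA-Leu-CAA had 7657 and 12142 counts against 15341 and 9221, the second treated library having fewer counts than the second untreated one. Without sites above 500 counts tRNA-Leu-CAA and tRNA-Leu-TAG missed the threshold (edgeR adjusted p = 0.137 for each). Without the second untreated library all 3 did (0.147, 0.166 and 0.302), and tRNA-Leu-TAG also without the first (0.183). tRNA-Ser-TGA fell too (log2 -0.76 ± 0.20, lost without either untreated library, edgeR adjusted p = 0.116 and 0.223), while tRNA-Ser-AGA (0.96) and tRNA-Ser-GCT (1.08) rose.

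The type II tRNAs, those of leucine, serine and selenocysteine, have a long variable arm. 3 of their 10 families rose and 4 fell, with a median log2 change of -0.19, and 26 of the 39 type I families rose and 5 fell, with a median of 1.16. The difference between these groups was not tested. By the first base of the anticodon, 6 of 9 families rose with A, 8 of 16 with C, 6 of 9 with G and 9 of 15 with T. Aspartate (log2 -0.38), phenylalanine (0.49) and initiator methionine (-1.54) had no family past the threshold. Initiator methionine had 19 and 19 counts untreated and 25 and 7 with 5-ClUrd, which leaves a change of that size undetectable at this depth.

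**Figure D3:**
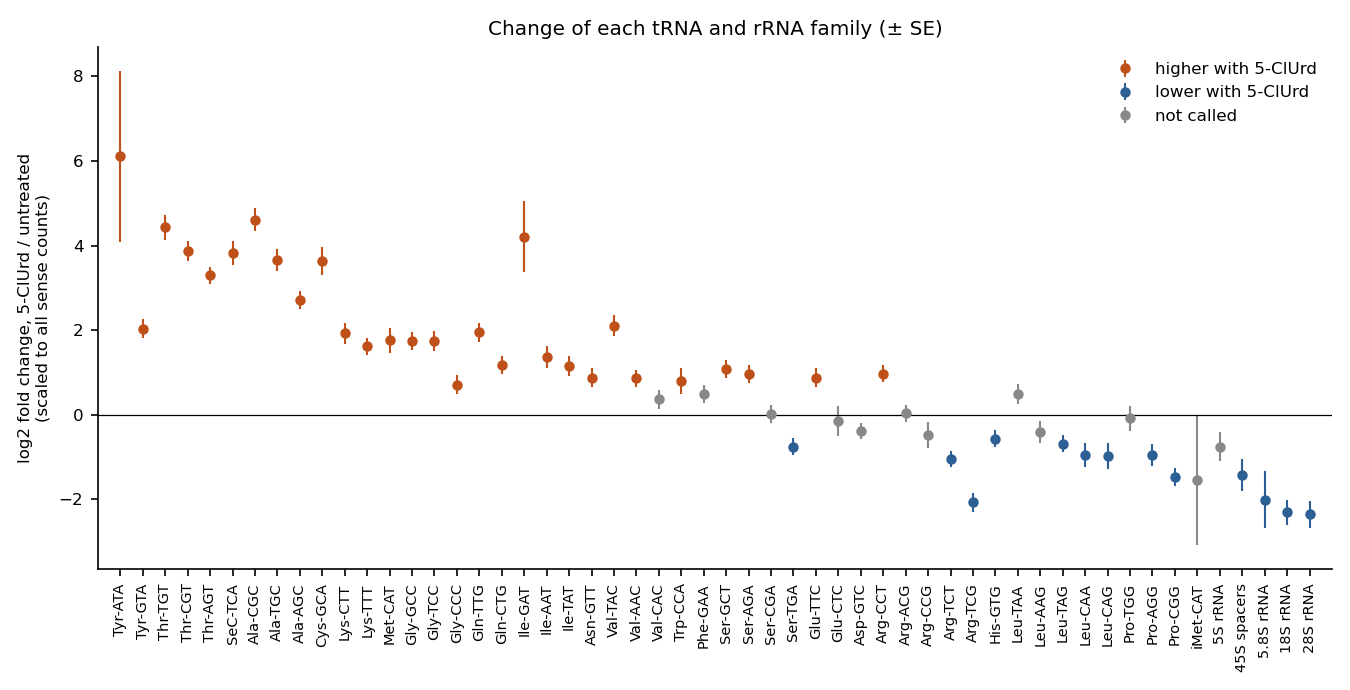
Log2 fold change with 5-ClUrd (vertical axis, counts scaled to all sense counts) of each of the 54 families, named on the horizontal axis and grouped by amino acid; bars are ± 1 SE from edgeR. Alanine and threonine families lie between 2.72 and 4.61, and 28S and 18S rRNA at -2.35 and -2.31, with rises in orange, falls in blue and families not called in grey.

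Single references, the gene copies or groups of identical copies, split the families further. Near-identical copies share reads, so a single reference is uncertain. Of 225 references tested 113 rose (50.2%) and 24 fell (10.7%), against 55 and 55 with TMM factors and 49 and 57 with DESeq2 size factors, which moved the median reference by -1.04 and -1.15. Of the 113 rises 55 kept their call with TMM factors and 12 turned sign. Of glycine references 12 of 12 rose, of threonine 12 of 15, of alanine 17 of 23, of isoleucine 10 of 13 and of cysteine 8 of 12. By contrast 4 of 19 leucine references rose and 9 fell, 3 of 19 arginine references rose and 7 fell, and 4 of 7 proline references fell with none rising.

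tRNA-Thr-TGT-2-1 had 14 and 21 counts untreated and 1111 and 2307 with 5-ClUrd (log2 5.34 ± 0.46, edgeR adjusted p = 5.09e-25). tRNA-Ala-CGC-3-1 had 4 and 10 against 530 and 688 (log2 5.18 ± 0.65), and tRNA-Ala-CGC-4-1 had 8 and 16 against 704 and 834 (4.74 ± 0.58). tRNA-Cys-GCA-5-1 had 4 and 4 against 269 and 317. In all of these the treated libraries lay far above the untreated ones. The rule that chose the named references required shares without overlap. tRNA-Lys-TTT-11-1 (3 and 4 against 115 and 508) and tRNA-Ala-TGC-3 (5 and 3 against 367 and 186) rose too, with treated replicates that differed between them. Falls were led by arginine references. tRNA-Arg-TCG-3-1 went from 818 and 1187 counts to 343 and 334 (log2 -2.84 ± 0.35, edgeR adjusted p = 5.43e-14), and tRNA-Arg-TCG-5-1 from 574 and 808 to 177 and 361. tRNA-Arg-TCT-4-1 went from 465 and 600 to 292 and 245. tRNA-Leu-AAG-3-1 went from 124 and 218 to 139 and 36 (log2 -2.23 ± 0.59), where the first treated library overlapped the untreated ones in counts. Without the first treated library its change was -3.48, and without the second untreated one it missed the threshold (edgeR adjusted p = 0.104).

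A site was a family and a position, with counts summed over the family's references. Of 1921 tRNA sites tested 537 rose (28%) and 105 fell (5.47%). Without either untreated library 0 of all sites passed edgeR's test: without the first untreated library 402 were higher and 537 lower at an unadjusted p under 0.05, and without the second 365 and 701. The calls on sites thus rest on having both untreated libraries. Over all 3576 sites 555 rose (15.5%) and 854 fell (23.9%), against 805 and 610 with TMM factors and 697 and 653 with DESeq2 size factors, which moved the median site by 0.66 and 0.45. Of the 537 rises on tRNA 130 had 0 untreated counts and 99 had 1 to 3 over both libraries together. The median of the mean counts behind the rises was 3 untreated and 103.5 with 5-ClUrd, and behind the falls it was 204 and 112.5.

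The largest rises lay in threonine and glycine tRNAs, at 5′ positions and in the T arm, the hairpin near the 3′ end that ends in the T loop. tRNA-Thr-CGT:59, that is position 59 of the family, had 0 counts in both untreated libraries and 106 and 261 with 5-ClUrd, at least 24.8-fold higher against a floor of 3 counts per untreated library. tRNA-Gly-GCC:54 had 4 and 5 counts against 380 and 731 (log2 5.65 ± 0.73, edgeR adjusted p = 2.76e-12). tRNA-Thr-AGT:59 had 2 and 6 against 259 and 534 (log2 5.37 ± 0.83, adjusted p = 1.02e-08). tRNA-Glu-TTC:5 had 6 and 6 against 305 and 727 (log2 5.12 ± 0.72). At each of these both treated libraries lay far above both untreated ones. Shares without overlap were required by the rule that chose these sites. tRNA-Thr-TGT:6 had 1 untreated count in all and 646 treated counts, which after scaling is a ratio of 266 (95% exact interval 47.6 to 10519, counting error only). For tRNA-Thr-TGT:8 (2 and 373 counts) it was 76.8 (21.1 to 636), for tRNA-Gly-GCC:3 (3 and 477) 65.4 (22.3 to 318) and for tRNA-Thr-TGT:58 (3 and 452) 62.0 (21.1 to 302). Other large rises were at tRNA-Gly-GCC:10 (3 and 2 against 433 and 153 counts), tRNA-Gly-GCC:55 (0 and 5 against 124 and 271), tRNA-Trp-CCA:9 (1 and 6 against 127 and 462) and tRNA-Arg-CCT:2 (2 and 3 against 209 and 224). Treated replicates differed from each other at most of these sites, the second being higher at all but tRNA-Gly-GCC:3 and tRNA-Gly-GCC:10. Of the untreated counts at tRNA-Gly-GCC:55 and tRNA-Thr-TGT:58 the second library held all, so the fitted changes of 5.06 and 5.94 became 10.3 and 10.5 without it, and no size is read from those.

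The largest falls lay in arginine tRNAs. tRNA-Arg-TCG:33, in the anticodon loop, had 704 and 930 counts untreated and 45 and 75 with 5-ClUrd (log2 -5.04 ± 0.39, edgeR adjusted p = 9.04e-35). tRNA-Arg-TCG:32 next to it had 448 and 657 against 61 and 54 (log2 -4.53 ± 0.45), and tRNA-Arg-TCG:34 had 70 and 134 against 27 and 8 (-3.78 ± 0.85). In tRNA-Arg-CCG, position 15 had 88 and 350 counts against 12 and 27, and position 27 had 62 and 175 against 23 and 10. In tRNA-Pro-CGG, position 14 had 88 and 105 against 13 and 19. Raw counts were lower in both treated libraries than in both untreated ones at all 6 of these sites. That their shares did not overlap was required by the rule that chose them. That was not so for falls in general: 24 of the 105 sites that fell had more raw counts with 5-ClUrd.

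tRNA-Ser-TGA:26 led with 5-ClUrd, at 4142 and 3892 counts from 1892 and 2384 (1.12% and 1.07% of counts from 1.46% and 1.39%; log2 -0.38 ± 0.17, edgeR adjusted p = 0.0611). Its sign was positive with TMM factors and DESeq2 size factors, and it passed the test without the first treated library (log2 -0.41, edgeR adjusted p = 0.0499). tRNA-Ser-AGA:26 (851 and 1210 against 3813 and 3641, log2 0.58 ± 0.20, adjusted p = 0.0161) and tRNA-Ser-GCT:26 (512 and 467 against 2642 and 2579, log2 1.097 ± 0.25, adjusted p = 0.000256) rose. tRNA-Ser-CGA:26 (1239 and 1952 against 2972 and 2114) fell by 0.59 ± 0.20 (edgeR adjusted p = 0.0131). This call was lost with both other scalings, turning sign under TMM factors, and without the second treated library (log2 -0.38, edgeR adjusted p = 0.119). Position 26 was thus the leading site of all 4 serine families in the treated libraries, and it led them untreated as well. Its mean share of the family went from 75.3% to 58.6% in tRNA-Ser-AGA and from 34.8% to 22.7% in tRNA-Ser-CGA. In tRNA-Ser-GCT it went from 38.4% to 39.3%, and in tRNA-Ser-TGA from 22.7% to 29.5%. tRNA-Gly-TCC had 3 of the 12 highest treated sites, at positions 2 (1134 and 1220 against 3351 and 3312), 9 (412 and 473 against 2808 and 3066) and 3 (153 and 159 against 2360 and 2676), with log2 changes of 0.20 ± 0.20, 1.44 ± 0.25 and 2.71 ± 0.30. The first did not pass (edgeR adjusted p = 0.415, but 0.00576 with TMM factors and log2 0.89), and the others rose. The remaining high sites that rose were tRNA-Arg-CCT:32 (605 and 749 against 2654 and 2520, log2 0.65 ± 0.24) and tRNA-Val-CAC:58 (454 and 978 against 2262 and 2798, log2 0.59 ± 0.24). The former missed the threshold with sites above 500 counts left out (log2 0.39, edgeR adjusted p = 0.577), with a minimum of 1 count (0.126), with all 8 libraries (0.270) and without either untreated library (0.128 and 0.118). The latter missed it without the first untreated library (log2 0.28), without the second treated one (0.41) and with the replicate block (edgeR adjusted p = 0.0545). tRNA-Gln-CTG:9 (710 and 1046 against 2565 and 2330) did not pass (log2 0.21 ± 0.23, edgeR adjusted p = 0.460, but 0.0143 with TMM factors and log2 0.88).

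Beside tRNA-Ser-TGA:26, the sites of highest untreated share were in leucine and aspartate tRNAs. tRNA-Leu-CAA:38 had 2436 and 3533 counts untreated and 2686 and 1704 with 5-ClUrd (log2 -1.72 ± 0.17, edgeR adjusted p = 2.53e-20). tRNA-Leu-CAA:27 had 2006 and 3400 against 3940 and 2727 (log2 -0.96 ± 0.17) and tRNA-Leu-TAG:27 had 1428 and 2170 against 2301 and 1412 (log2 -1.23 ± 0.20). tRNA-Asp-GTC:9 had 2329 and 2489 against 2516 and 2484 (log2 -1.25 ± 0.18), so its raw count was level while its share fell from 1.79% and 1.45% to 0.678% and 0.684%. The raw counts overlapped at all 4 sites and the shares at none. With sites above 500 counts left out, the references that remained at tRNA-Asp-GTC:9 changed by 1.61 in the other direction (edgeR adjusted p = 0.269). With TMM factors tRNA-Asp-GTC:9, tRNA-Leu-CAA:27 and tRNA-Leu-TAG:27 missed the threshold (edgeR adjusted p = 0.0570, 0.312 and 0.101). In human tRNA, positions 9, 26, 37 and 58 of the standard numbering are, as background, known sites of base methylation. The reference positions used here can differ from that numbering. Modification was not measured here and its part in the counts was not tested.

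**Figure D4:**
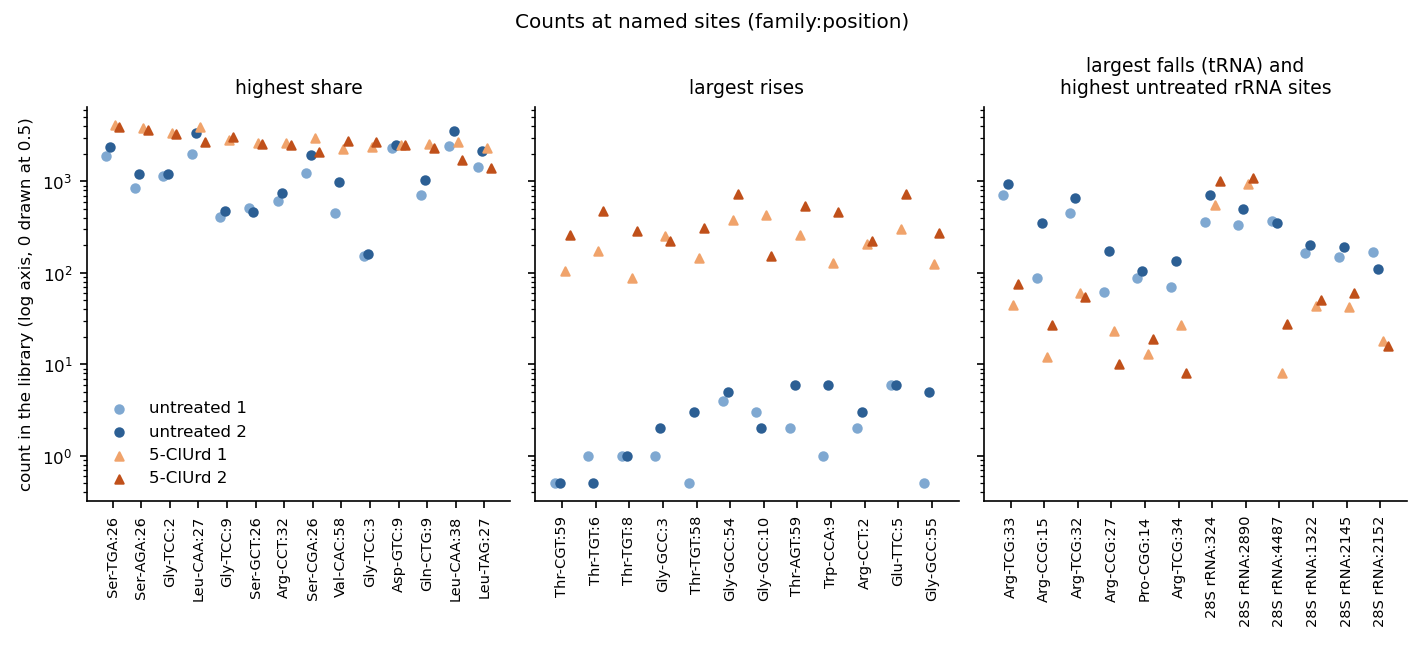
Count of each named site in the untreated (circles, 2 libraries) and 5-ClUrd (triangles, 2 libraries) groups, on a log axis with 0 drawn at 0.5; sites are named by family and position on the horizontal axis. At the sites of highest share (left) the treated counts lie between 1412 and 4142 and several untreated counts lie among them, the largest rises (middle) run from 0 to 6 untreated counts up to between 87 and 731, and at the largest falls (right) both treated counts lie below both untreated ones, unlike at positions 324 and 2890 of 28S rRNA.

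Summed over type I tRNAs, counts peaked at positions 2 and 9 and in the D loop around 16 to 19, with lower peaks at 26 or 27, 37 and 58, with and without the analogue. Position 2 took 6.48% and 5.69% of sense counts untreated and 7.92% and 7.96% with 5-ClUrd (log2 0.38 ± 0.09, edgeR adjusted p = 0.000163). Position 9 took 4.96% and 4.91% against 4.79% and 5.56%, with overlap of the groups (log2 0.07 ± 0.11, edgeR adjusted p = 0.621, turning to -0.042 without the second treated library). In the D loop, position 16 took 3.26% and 3.53% against 3.34% and 3.20%, and position 18 took 2.21% and 2.08% against 3.39% and 3.07% (log2 0.59 ± 0.18, edgeR adjusted p = 0.00885). Positions 15, 17 and 19 lay higher in both treated libraries, with log2 changes of 0.44, 0.29 and 0.27 that did not pass (edgeR adjusted p = 0.0739, 0.249 and 0.226). Each passed without the second treated library (0.0294, 0.0473 and 0.0291 by edgeR), and positions 9, 17 and 19 passed without sites above 500 counts (log2 1.13, 0.60 and 1.19). The changes at positions 2, 9, 15, 17, 18 and 19 were negative with TMM factors and DESeq2 size factors, and position 16 then fell (log2 -0.72 and -0.69). Of 64 positions 24 rose (37.5%) and 0 fell (0.0%; 32 and 0 at an unadjusted p under 0.05), against 4 and 7 with TMM factors and 4 and 6 with DESeq2 size factors, which moved the median position by -0.68 and -0.65. 1 position passed without the first and 1 without the second untreated library.

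The largest rises by position were in the T loop and at the end of the anticodon stem. Position 56 took 0.0492% and 0.0982% of counts untreated and 0.344% and 0.626% with 5-ClUrd (log2 2.71 ± 0.53, edgeR adjusted p = 5.53e-05). Most of its 1276 and 2271 treated counts lay in glycine tRNAs. tRNA-Gly-GCC held 543 and 826 of them, and the reference tRNA-Gly-CCC-2 held 434 and 716. Position 54 took 0.0777% and 0.124% against 0.388% and 0.748% (log2 2.49 ± 0.50), and position 59 took 0.169% and 0.327% against 0.746% and 1.19% (log2 1.96 ± 0.41). Position 31 took 0.158% and 0.160% against 0.821% and 0.513% (log2 2.06 ± 0.46). The groups did not overlap at these 4 positions, which rose under TMM factors and DESeq2 size factors as well. All 4 missed the threshold with all 8 libraries in the fit (edgeR adjusted p from 0.131 to 0.176) and without either untreated library (0.220 to 0.607). Without sites above 500 counts positions 31 and 56 missed the threshold (edgeR adjusted p = 0.0695 for each). Positions 26, 37 and 38 had log2 changes of -0.37, -0.38 and -0.66 and did not pass (edgeR adjusted p = 0.124, 0.209 and 0.207).

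**Figure D5:**
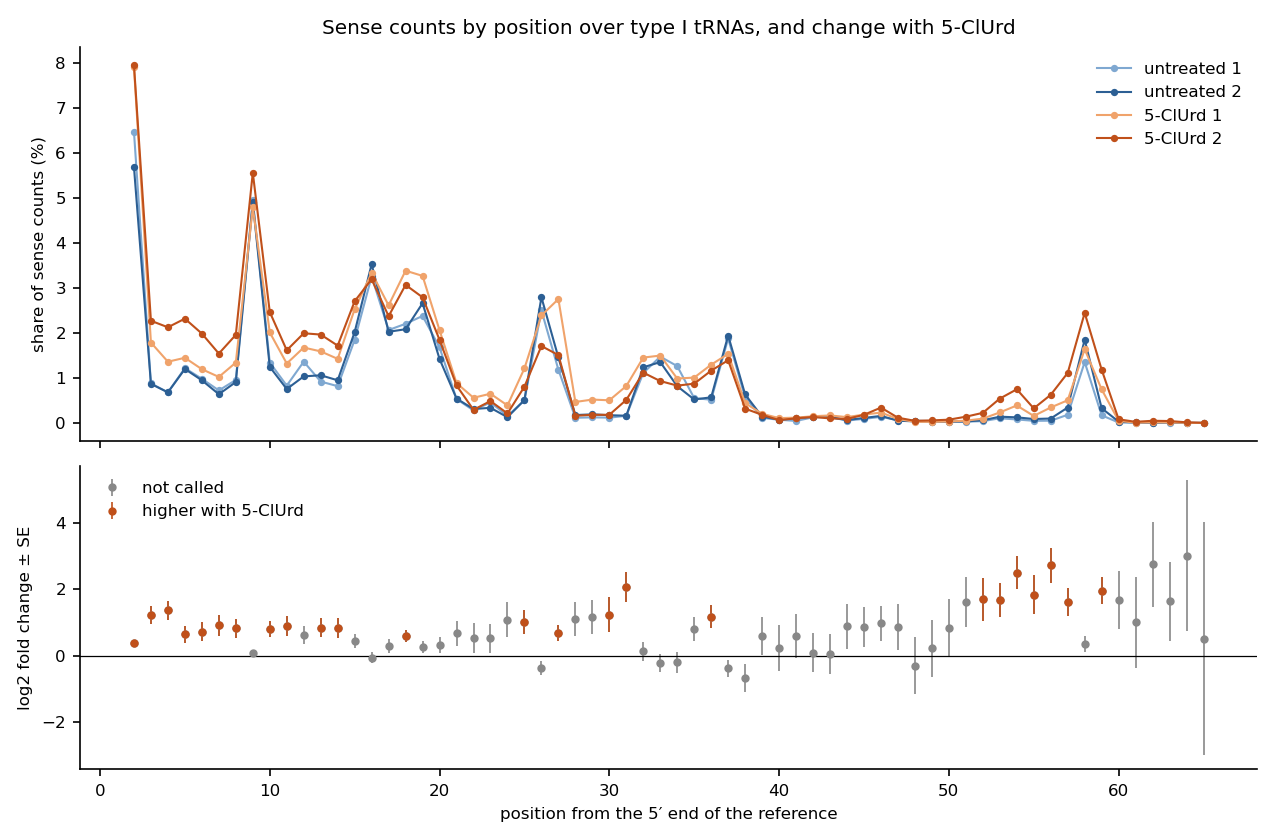
Share of sense counts at each position of type I tRNAs in the 4 libraries (upper panel, percent) and its log2 fold change with 5-ClUrd ± 1 SE (lower panel), by position from the 5′ end. Positions 2 and 9 are the tallest in every library; the 24 positions that rose (orange) lie between 2 and 18, at 25, 27, 30, 31 and 36, and between 52 and 59.

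Windows were compared as shares of type I tRNA counts. The window of positions 14 to 21, which holds the D loop, took 28.4% and 28.9% untreated and 27.4% and 25.04% with 5-ClUrd, so both treated libraries were lower, by 2.43 points in the mean. The anticodon loop (32 to 38) took 14.1% and 13.4% against 11.6% and 8.95%, lower by 3.53 points in the mean. The 5′ window (1 to 9) took 32.4% and 30.1% against 29.3% and 34.8%, which overlapped. The variable loop (44 to 48) took 0.753% and 0.791% against 0.923% and 1.05%, higher by 0.212 points. The exact two-sided permutation p was 0.333 for the D-loop, anticodon-loop and variable-loop windows, the smallest value possible here, and 1 for the 5′ window. Without sites above 500 counts the differences were -6.97 points for the D loop, -8.74 for the anticodon loop, 11.98 for the 5′ window and -0.149 for the variable loop, and over all tRNAs the D loop turned to 0.703 and the variable loop to -0.168. Positions 10 to 13 (8.55% and 7.78% against 9.28% and 10.9%) also lay higher in both treated libraries, as did 28 to 31 and 49 to 53. Positions 54 to 60 overlapped (3.62% and 5.43% against 5.37% and 8.81%).

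The D-loop window did not gain share of the type I counts, but most of its called sites rose, as did most called type I sites. Of 252 sites tested at positions 14 to 21, 107 rose and 17 fell (42.5% and 6.75%). Of all 1417 type I sites tested, 478 rose (33.7%) and 61 fell, so rises outnumbered falls among type I sites as a whole too. At positions 1 to 9, 119 of 189 rose and 6 fell, and at 10 to 13, 61 of 120 rose and 5 fell. In the anticodon loop 40 of 199 rose and 17 fell, and at 54 to 60, 43 of 123 rose and 1 fell. The other windows, 22 to 31 and 39 to 53, had between 9.43% and 32.2% of their sites rise, each below the type I share of 33.7%. In type II tRNAs, 59 of 504 sites rose and 44 fell.

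A further fit asked whether a site took more or less of its own family's counts, apart from the change of the family. Of 3442 sites 208 rose (6.04%) and 112 fell (3.25%) within their family, 9.3% in either direction. Of the 1323 type I tRNA sites among them 116 rose (8.77%) and 45 fell (3.40%), the shares to read the windows against. At positions 1 to 9 of type I tRNAs 48 of 168 rose and 10 fell, and at positions 10 to 13, 22 of 107 rose and 0 fell. At 54 to 60, 16 of 121 rose and 0 fell. In the D-loop window 14 rose and 14 fell of 228 (6.14% each), and in the anticodon loop 4 rose and 14 fell of 186 (2.15% and 7.53%). Without an untreated library these totals dropped to 30 and 27 (the first left out) and 54 and 43 (the second), and without the second treated one to 133 and 68. Of the 59 tRNA sites that fell within their family 29 had more raw counts with 5-ClUrd, and 26 had 500 or more untreated counts. The 145 that rose had a median of 7.5 untreated counts.

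In tRNA-Pro-AGG and tRNA-Pro-CGG, but not in tRNA-Pro-TGG, position 19 in the D loop passed the test with a larger part of the family. tRNA-Pro-AGG:19 had 8.45% and 7.92% of the family's counts untreated and 37.5% and 28.4% with 5-ClUrd (log2 2.01 ± 0.57, edgeR adjusted p = 0.00955). tRNA-Pro-CGG:19 had 9.13% and 9.41% against 28.3% and 25.5% (log2 1.54 ± 0.38, adjusted p = 0.00193). tRNA-Pro-TGG:19 held 5.33% and 3.57% against 2.37% and 3.06% (edgeR adjusted p = 0.419), and was named after its values were seen. Position 16 of tRNA-Pro-AGG and tRNA-Pro-CGG held 51.2% and 41.4% untreated (means) and 32.4% and 29.4% with 5-ClUrd, changes that did not pass (edgeR adjusted p = 0.205 and 0.179). Dropping either untreated library left both rises at position 19 short of the threshold (edgeR adjusted p from 0.105 to 0.177). The raw counts at position 19 rose from 53 and 61 to 262 and 300 in tRNA-Pro-AGG and from 174 and 233 to 490 and 542 in tRNA-Pro-CGG.

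In tRNA-Arg-TCG, positions 32 and 33 of the anticodon loop fell within the family and position 58 rose. tRNA-Arg-TCG:33 held 16.2% and 15.1% of the family untreated and 1.63% and 2.27% with 5-ClUrd (log2 -2.999 ± 0.30, edgeR adjusted p = 2.72e-19), and tRNA-Arg-TCG:32 held 10.3% and 10.7% against 2.21% and 1.63%. tRNA-Arg-TCG:37 in the same loop, named after its values were seen, held 23.99% and 21.7% against 27.6% and 23.5% and did not pass (edgeR adjusted p = 0.674). tRNA-Arg-TCG:58, in the T loop, held 5.46% and 9.46% against 14.97% and 29.9% (log2 1.59 ± 0.31, adjusted p = 2.36e-05), with a change of 1.002 without the second treated library and a call lost without the first untreated one (adjusted p = 0.0982). tRNA-Arg-CCG:15 held 8.72% and 16.8% against 0.580% and 0.857%, and tRNA-Arg-CCG:9 held 8.72% and 6.37% against 26.9% and 29.7%. The latter missed the threshold without the second untreated library (edgeR adjusted p = 0.0603) and without sites above 500 counts (log2 3.27, edgeR adjusted p = 0.0613). tRNA-Ile-TAT:34 held 19.3% and 9.34% against 3.44% and 2.14%, a fall lost without either untreated library (edgeR adjusted p = 0.356 and 0.105).

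Other rises within families were at tRNA-Trp-CCA:57 (3.82% and 5.41% against 16.1% and 16.1%), tRNA-Tyr-GTA:26 (0.592% and 5.03% against 16.3% and 12.5%) and tRNA-Ser-AGA:25 (6.22% and 5.22% against 17.7% and 11.8%). The call at tRNA-Tyr-GTA:26 rested on 1 and 9 untreated counts and was lost without either untreated library (log2 1.51 and 4.58, edgeR adjusted p = 0.426 and 0.0605) or the first treated one (0.0670). Those at tRNA-Trp-CCA:57 and tRNA-Ser-AGA:25 were lost without either untreated library (edgeR adjusted p from 0.0706 to 0.146). That at tRNA-Ser-AGA:25 was also lost without the first treated one (edgeR adjusted p = 0.0814) and without sites above 500 counts (log2 0.21). tRNA-Lys-TTT:37 and tRNA-Gly-GCC:2, chosen after their values were seen, led their untreated families with 41.6% and 61.1% (means) and fell within them to 12.7% and 16.1%. Their raw counts were higher with 5-ClUrd, at 417 and 647 against 1168 and 1226 for tRNA-Lys-TTT:37 and 589 and 659 against 1338 and 1348 for tRNA-Gly-GCC:2.

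The base at the site could be read for the references with sequence. T lay at 25.2% and 25.5% of their untreated counts and 26.3% and 27.3% of those with 5-ClUrd, against 25.7% of positions 2 to 60 in these sequences. The difference was 1.51 points (exact permutation p = 0.333, the smallest possible). T at the base 1 before the site was at 24.9% and 24.1% against 22.8% and 25.9%, which overlapped. T at the base 1 after it was at 29.0% and 28.4% against 32.3% and 33.4%, higher by 4.20 points with no overlap. C at the site was lower in both treated libraries (25.6% and 23.7% against 20.6% and 18.5%). The pooled values rest mainly on tRNA-His-GTG-1 and tRNA-Gly-CCC-2, and single references differed: T at the site went from a mean of 15.1% to 24.5% in tRNA-Gly-CCC-2 and from 16.5% to 12.8% in tRNA-Pro-TGG-3. The gene joined to tRNA-Ile-TAT-2 holds an intron, and whether its reference does was not settled. Its bases beyond the anticodon were therefore left out of these values. The difference turned to -3.39 points without sites above 500 counts and to -1.60 with each site counted once.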

How the data were processed

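iCLIP libraries of 3xFLAG-DUS2L cells were compared as 2 untreated against 2 with 5-ClUrd, grouped by their titles. The files as deposited by the authors hold a count of cDNA ends for each position and strand of tRNA and rRNA references. Per the submitters' processing notes STAR 2.7.0f and hg38 were used. How molecular identifiers were handled, how sites were filtered and how peaks were called is not given in the sources used here, and deposited peak lists were not used. Without that, whether a count is of molecules or of reads is open, and intervals cover counting error only.

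Sense counts were summed to families (amino acid and anticodon), references, sites (family and position) and positions of type I tRNAs. 1 reference without an anticodon in its name (390 counts) was left out of families. A feature needed at least 10 counts over the 4 libraries. The test was the quasi-likelihood one of edgeR 4.0.16, with the sense total as library size and no further factors, and p-values were Benjamini-Hochberg adjusted over each table. The within-family fit used the family's count as offset, for families of at least 50 counts. For shares of windows and bases the test was a two-sided exact permutation, with 0.333 as its smallest p here. A share of 0 has an upper limit of 3 counts, between 0.000809% and 0.00231% of a library.

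Named features were, by rule, the sites and positions of highest share and those called with the largest changes, above a share of 0.05% (10% of the family within families). For rRNA sites the rule was the highest untreated share. Families, references and tRNA sites named for a large change also had to have shares that did not overlap between the groups. Their non-overlap is therefore no separate result. The members and lists were chosen with earlier results of these data known. The alternatives changed the scaling (TMM factors, or size factors from DESeq2 1.42.0), the test (DESeq2's Wald test), the count minimum (1 or 50) and the features or libraries: both strands, tRNA alone, leaving out sites above 500 counts, all 8 libraries in the fit, the replicate number as a block, and each library left out. The labels give no more than a shared number. Sequences were joined by gene name to RefSeq (GRCh38.p14; 381 of 409 names matched a RefSeq gene). A list of families by T at position 20 was not computed, because 14 references had sequence. Scripts ran in R 4.3.3 and Python 3.11.15 and were tested on simulated data.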

Additional observations from a re-analysis of the deposited data

Results flagged for a closer look

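Counts on the antisense strand were not part of the comparison. They made up 1.27% of all counts in the second 5-ClUrd library, against 0.298% in the first and 0.433% and 0.420% in the untreated ones, so that 1 treated library lay above the control libraries and the other below them. Most lay on the 45S pre-rRNA reference, with 451 and 469 counts untreated and 926 and 3732 with 5-ClUrd. With both strands counted the numbers of families that rose and fell were 29 and 13, as with the sense strand alone.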

How the results depend on the processing

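The numbers of calls changed with the scaling, the test and the count minimum. With TMM factors, DESeq2 size factors and the DESeq2 Wald test in turn, families numbered 19, 19 and 18 higher and 21, 21 and 21 lower, references 55, 49 and 46 higher and 55, 57 and 57 lower, and positions 4, 4 and 5 higher and 7, 6 and 7 lower. The sites lower were 341 by the Wald test, 447 with a minimum of 1 count and 212 with 50. Within families 138 sites were higher and 66 lower with a minimum of 1 count, and 123 and 60 without sites above 500 counts. With all 8 libraries in the fit, 7 families and 15 references were lower, 0 positions higher (11 at an unadjusted p under 0.05 by edgeR), and 18 sites higher and 12 lower within families. With the replicate number as a block, 458 sites were lower and 131 higher within families, and families numbered 28 higher and 10 lower. The correlation of same-numbered deviations over 54 families was 0.288, and the labels share no more than a number.

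Leaving out 1 library at a time gave 19 to 30 families higher and 7 to 15 lower, 56 to 128 references higher and 9 to 31 lower, 0 to 432 sites higher and 0 to 425 lower, 1 to 31 positions higher and 0 to 4 lower, and 30 to 252 sites higher and 27 to 144 lower within families. The differences in points ranged from 10.2 to 15.9 for the tRNA share, -3.62 to -1.24 for the D loop, -1.91 to 3.52 for the 5′ window, -4.83 to -2.23 for the anticodon loop, 0.151 to 0.274 for the variable loop and 0.980 to 2.03 for T at the site.

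Without sites above 500 counts these differences were 29.5, -6.97, 11.98, -8.74, -0.149 and -3.39. With each site counted once they were 19.6 for the tRNA share, -0.316 for the 5′ window, 0.137 for the variable loop and -1.60 for T. Over all tRNAs they were 0.703 for the D loop, 5.34 for the 5′ window, -6.86 for the anticodon loop and -0.168 for the variable loop. T was at -0.157 for the base 1 before and 4.20 for the base 1 after.

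Signs turned in log2 under the same scalings in turn at 28S rRNA:2890 (0.65, 0.46 and 0.46), tRNA-Ser-TGA:26 (0.30, 0.085 and 0.085) and tRNA-Ser-CGA:26 (0.087 with TMM factors), and at positions 2 (-0.28, -0.26 and -0.26), 9 (-0.60, -0.58 and -0.58), 15 (-0.23, -0.21 and -0.21), 17 (-0.38, -0.35 and -0.35), 18 (-0.073, -0.049 and -0.049) and 19 (-0.39, -0.37 and -0.37). tRNA-Asp-GTC:9 turned to 1.61 without sites above 500 counts. With 1 library left out, 28S rRNA:2890 ranged from -0.14 to 0.11 (0.094 without the second untreated, 0.11 without the first treated library), position 16 from -0.11 to 0.0034 (without the second untreated one) and position 9 from -0.042 (without the second treated one) to 0.17. The causes were not tested, beyond the fewer samples or features that an alternative holds by construction.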

Other observations

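Among the rRNA sites that rose, those with the most counts, chosen after their values were seen, stood apart from the general loss on rRNA. 28S rRNA:4366 had 1 and 5 counts untreated and 50 and 243 with 5-ClUrd (log2 4.35 ± 1.07, edgeR adjusted p = 0.000714). 28S rRNA:2889, beside the high site at 2890, had 12 and 37 counts against 103 and 390 (log2 2.12 ± 0.76, edgeR adjusted p = 0.0182). In both, as at 28S rRNA:53, the second treated library held most of the treated counts. Of the 18 rRNA sites that rose 12 had 0 untreated counts.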
